A study of Mus musculus with 11 samples.

Results

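The Bcl2 family genes described here are 9 core members chosen by symbol, among the 24421 genes of the count table: Bcl2l10, Mcl1, Bcl2l1 and Bcl2, which oppose apoptosis, the pore-forming effectors Bax and Bak1, and Bcl2l11, Bid and Bbc3, which carry only the BH3 domain and trigger the pathway. RNA-seq counts were examined in ovulated mouse oocytes, which wait at metaphase II of meiosis (MII), and in late 2-cell embryos, with and without Daxx in the oocyte. The Daxx protein helps to deposit the histone variant H3.3. The control oocytes (n = 3 libraries) were homozygous for the floxed Daxxtm2Led allele (Daxx F/F) without Cre, and the knockout oocytes (n = 3) were Daxx F/F with the transgene Tg(Zp3-cre)93KnwMGI, whose Zp3 promoter drives Cre in growing oocytes. All females were over 8 weeks old, had a mixed C57BL/6J and 129/Sv background and received 5 IU of each gonadotropin, and oocytes were taken 20 h after hCG. Embryos came from such oocytes by in vitro fertilization with sperm of 8-week-old JF1 males and were collected at 33 h: the control embryos (n = 3, maternal and zygotic Daxx present, m+z+) and the maternal knockout embryos (n = 2, labelled m-z+), which inherited a paternal Daxx copy. For each library 50 oocytes or embryos of 2 to 3 females were pooled. The females of all 4 groups were Daxx F/F, and only the knockout females carried Cre, so that the transgene and the loss of Daxx cannot be told apart.

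In the mitochondrial pathway of apoptosis, the effectors Bax and Bak1 open the outer mitochondrial membrane once BH3-only proteins relieve or bypass the antiapoptotic members. Antiapoptotic proteins bind both other classes, and Mcl1 protein is known for its short life. Oocytes arrested at metaphase transcribe little and live on stored mRNA, much of which is cleared around fertilization, and the mouse embryo starts its major wave of transcription at the 2-cell stage.

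Counted reads numbered 32582998 to 39798586 per oocyte library and 17978192 to 25308468 per embryo library, so that the floor of 3 counts corresponds to 0.0754 to 0.167 CPM (a gene's reads scaled to a common library total). Daxx itself was at 92.6 ± 5.67 CPM (SD, n = 3) in control oocytes and 8.14 ± 0.286 CPM (n = 3) in knockout oocytes, and at 39.7 ± 6.14 CPM (n = 3) in control and 24.2 ± 1.88 CPM (n = 2) in maternal knockout embryos. All 10 oocyte marker genes were detected at 1 CPM or more in every group, and the summed level of 7 markers of the 2-cell stage was 2.39 to 4.52 CPM in oocyte libraries and 636.2 to 786.8 CPM in embryo libraries. The share of reads on Lars2, which can carry ribosomal RNA reads, was 0.142 to 0.201% in oocytes and uneven in embryos, at 0.482, 1.85 and 0.871% in controls and 1.81 and 0.552% in maternal knockouts. Levels in CPM are shares of a library's reads, so that a change in a gene's RNA per embryo and a change in the total of all other RNA cannot be told apart.

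Bcl2l10 dominated the family in oocytes. Scaled to the deposited gene width, it stood at 1606 CPM per kb in control oocytes, the 4th highest of 18787 detected genes, and at 1666 CPM per kb in knockout oocytes, the 5th of 18878. It made up 96.7% of the summed CPM per kb of the 9 genes in both oocyte groups. In control embryos this share was 53.0 ± 6.46% (SD, n = 3) and in maternal knockout embryos 60.1 ± 5.21% (n = 2), with Bcl2l10 at rank 188 of 20695 and rank 131 of 20657 genes. The share of Mcl1 went from 0.142% of the sum in control oocytes to 27.4 ± 3.72% in control embryos, and from 0.139% to 21.5 ± 2.39% in the knockout groups. The sum itself fell from 1661 ± 67.2 to 365.4 ± 34.3 CPM per kb in controls and from 1722 ± 104 to 402.4 ± 55.9 CPM per kb in knockouts. A share could thus rise while the level fell, as for Bcl2l1 (2.40% to 8.42% in controls).

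**Figure D1:**
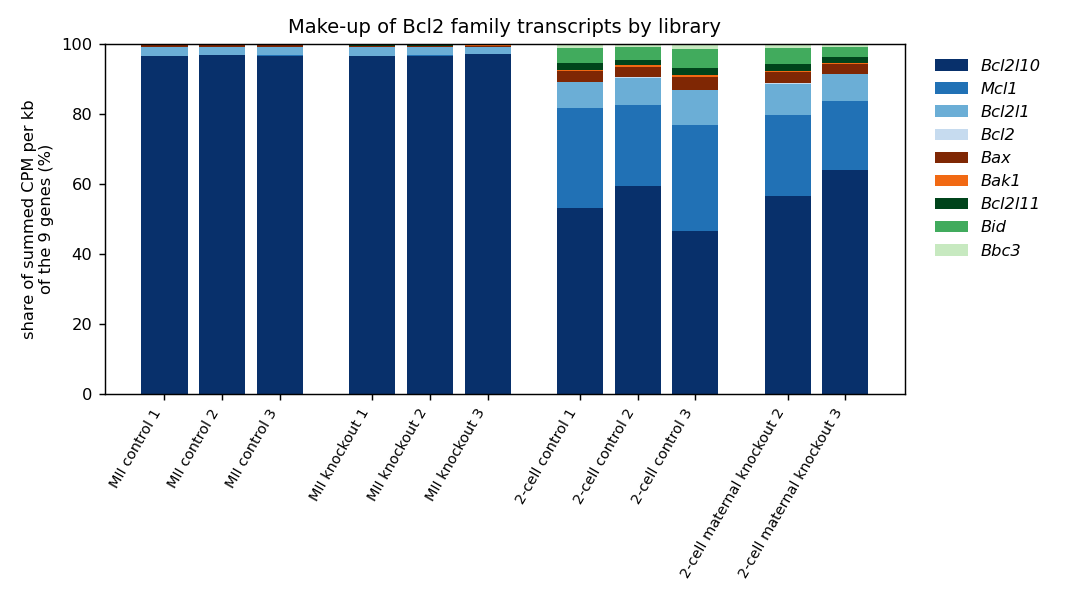
Share of the summed level of the 9 genes, in CPM per kb of deposited width (%), in each of the 11 libraries. Each bar is 1 library and each colour 1 gene. Bcl2l10 fills 96.5 to 97.0% of every oocyte bar and 46.4 to 63.8% of the embryo bars, where Mcl1 takes 19.8 to 30.3%.

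The order of the genes per unit length differed between stages. In control oocytes it ran from Bcl2l10 through Bcl2l1 (39.8 CPM per kb), Bax (7.08), Bcl2l11 (5.71) and Mcl1 (2.36) to Bcl2 (0.143), Bid (0.134), Bak1 (0.0228) and Bbc3 (0.0104), and the library ranges of Bcl2 and Bid, and of Bak1 and Bbc3, overlapped. In knockout oocytes Bcl2l11 (7.96 CPM per kb) stood above Bax (6.97) without overlap, and each of the last 4 overlapped with its neighbour. In control embryos the order was Bcl2l10 (195.0 CPM per kb), Mcl1 (99.1), Bcl2l1 (30.6), Bid (15.9), Bax (11.8), Bcl2l11 (6.83), Bbc3 (4.35), Bak1 (1.66) and Bcl2 (0.159). The maternal knockout embryos had the same order, and no neighbours overlapped in either embryo group. Bid and Bax changed places in both when the length was the union of GENCODE exons (8.44 and 10.1 CPM per kb in control embryos), because that union is 1.88 times the deposited width for Bid. By role, the 4 antiapoptotic genes held 99.2% of the sum in control oocytes and 88.8 ± 1.87% in control embryos, the 2 effectors 0.428% and 3.72%, and the 3 BH3-only genes 0.353 ± 0.0387% and 7.48 ± 1.39%.

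From control oocytes to control embryos, 5 of the 9 genes rose and 2 fell by edgeR's quasi-likelihood test (Benjamini-Hochberg adjusted p under 0.05 over all 15577 genes tested). Among all tested genes 43.1% rose and 40.0% fell, so that a change at this step was common, and the median log2 change was 0.72 for the 9 genes and 0.07 for all genes. Mcl1, Bid, Bbc3 and Bak1 rose by over 30-fold in both genotypes (ratios of means or summed counts) and Bax by less than 2-fold, while Bcl2l10 and Bcl2l1 fell. In the knockout libraries, which share no library with the controls, again 5 rose and 2 fell, beside 42.5% and 37.7% of 16592 genes. The median log2 change there was 0.74 for the 9 genes and 0.09 for all genes. Bid, Bbc3 and Bak1 had too few reads to pass the filter between oocyte genotypes and were tested here through their embryo counts. A fall was hardly possible for them, which limits these counts and medians and their p-values given below. Embryos carried a JF1 genome that oocytes lacked, and its part in these read counts was not tested.

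**Figure D2:**
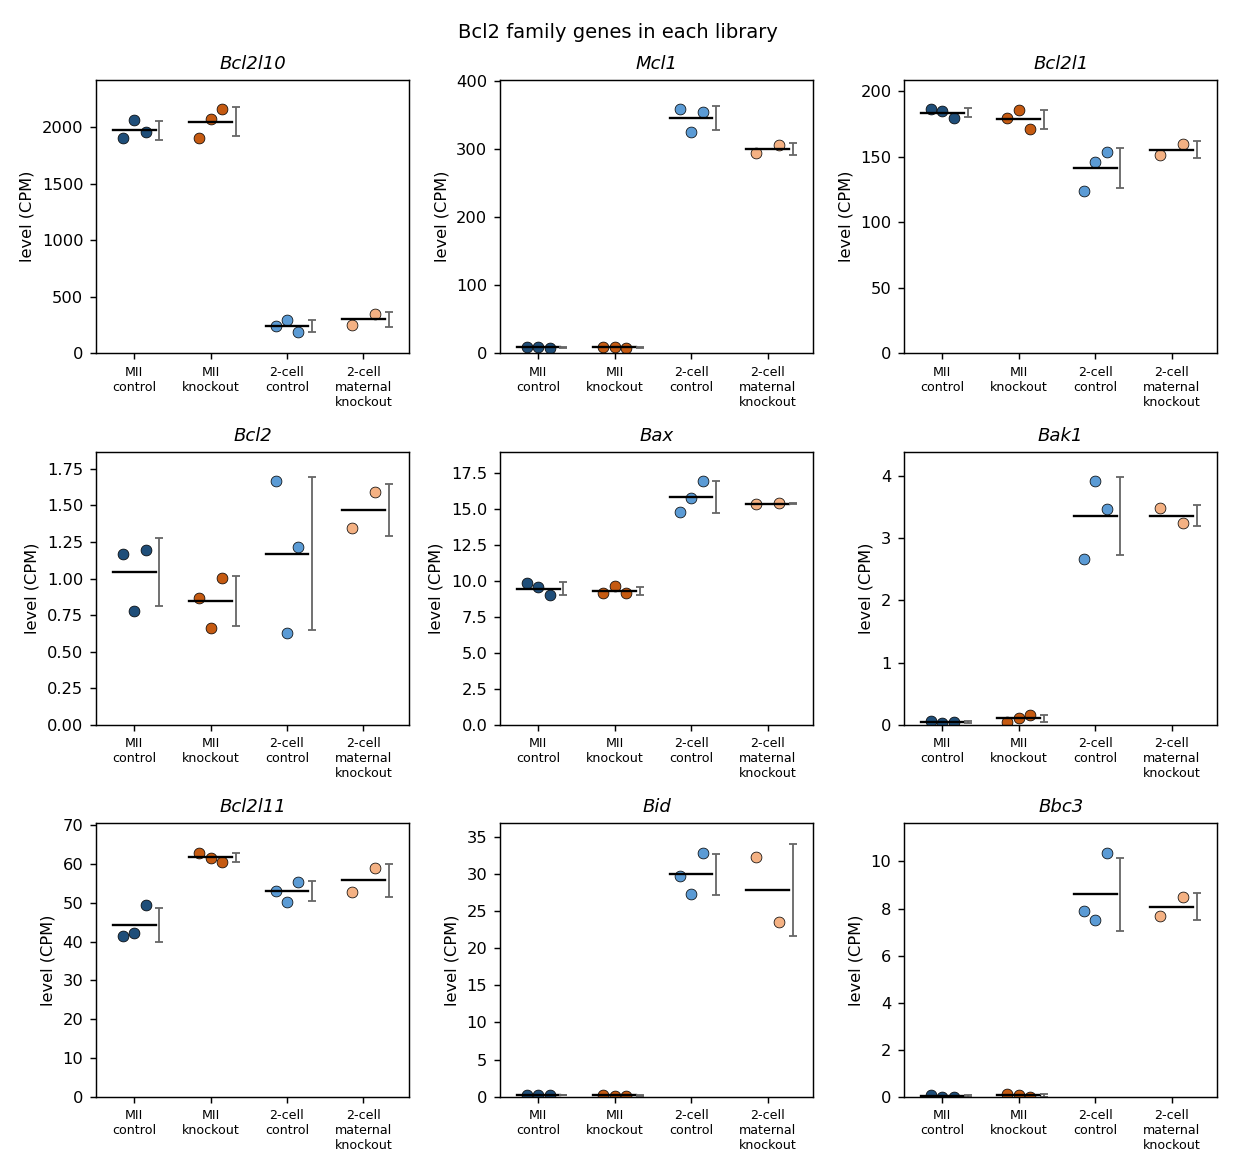
Level of each gene in CPM (vertical axis, linear, starting at 0) in the 4 groups. Points are libraries, black lines group means and grey bars 1 SD (n = 3, or 2 for maternal knockout embryos). Bcl2l10 is high in oocytes and low in embryos, Mcl1, Bak1, Bid and Bbc3 are the reverse, and for Bcl2l11 the oocyte genotypes separate.

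Among the antiapoptotic genes, Bcl2l10 was at 1901, 2063 and 1953 CPM in control oocytes and 1906, 2070 and 2160 CPM in knockout oocytes. Control embryos had 235.2, 292.9 and 190.4 CPM and maternal knockout embryos 251.6 and 346.4 CPM. Every embryo library was far below every oocyte library, and the genotypes overlapped at both stages. The log2 change from oocyte to embryo was -3.06 (SE 0.15, edgeR adjusted p = 3.01e-09) in controls, and only 4.03% of tested genes had a lower value. It was -2.82 (SE 0.16, adjusted p = 3.74e-07) in knockouts.

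Mcl1, whose protein is a rapidly turned-over guard against Bak1, moved the other way. Its level was 8.19, 8.44 and 8.10 CPM in control oocytes and 8.64, 8.77 and 7.52 CPM in knockout oocytes. In embryos it reached 358.5, 325.2 and 353.5 CPM in controls and 293.6 and 305.5 CPM in maternal knockouts. Stages were separated by a wide gap. Both maternal knockout embryo libraries lay below the lowest control, but this difference did not pass (log2 change -0.24, SE 0.13, edgeR unadjusted p = 0.0899). With so few libraries it can arise by chance. The mean rose 41.9-fold in controls (log2 change 5.36, SE 0.10, edgeR adjusted p = 4.12e-12), and 8.58% of tested genes had a larger log2 change. In knockouts the rise was 36.0-fold (log2 change 5.13, SE 0.10, adjusted p = 4.52e-10). Per unit length, Bcl2l10 exceeded Mcl1 679-fold in control oocytes and 1.98 ± 0.525-fold in control embryos.

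Bcl2l1, which encodes Bcl-xL, was present at a similar order of level at both stages. Control oocytes had 186.4, 184.9 and 179.6 CPM and control embryos 123.8, 146.3 and 153.6 CPM, without overlap (log2 change -0.41, SE 0.09, edgeR adjusted p = 0.00141). Knockout oocytes had 179.3, 185.5 and 170.9 CPM and maternal knockout embryos 150.9 and 159.9 CPM, again without overlap (log2 change -0.25, SE 0.08, adjusted p = 0.0152). The call in knockouts was lost with DESeq2 (adjusted p = 0.0805) and with RLE size factors in edgeR (adjusted p = 0.0758). Mcl1 relative to Bcl2l1 per unit length went from 0.0595 in control oocytes to 3.28 ± 0.487 in control embryos.

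Bcl2, the founding member of the family, was low throughout. It was at 1.17, 0.779 and 1.20 CPM in control oocytes, 0.864, 0.665 and 1.01 in knockout oocytes, 1.67, 0.627 and 1.22 in control embryos, and 1.34 and 1.59 in maternal knockout embryos. The control groups overlapped (log2 change 0.13, SE 0.38, edgeR adjusted p = 0.755), and the knockout embryos lay above the knockout oocytes without passing the test (log2 change 0.74, SE 0.34, adjusted p = 0.0671), which it passed in 1 of 13 alternatives (RLE size factors, adjusted p = 0.0445). Exons of Bcl2 share 558 bases with an antisense gene that is not a row of the table, and whether its reads entered the count was not tested.

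Of the effectors, Bax was measurable in every library and Bak1 in embryos. Bax stood at 9.85, 9.57 and 9.01 CPM in control oocytes and 14.8, 15.8 and 17.0 CPM in control embryos, a 1.67-fold rise of the mean without overlap (log2 change 0.72, SE 0.14, edgeR adjusted p = 0.000445). It went from 9.17, 9.65 and 9.18 CPM to 15.4 CPM in both libraries in the knockouts (log2 change 0.67, SE 0.13, adjusted p = 0.00107). The embryo libraries lay above all oocyte libraries in both genotypes. Exons of Bax share 192 bases with Gm45808, a gene on the same strand that is not a row of the table. Whether reads of Gm45808 entered the count of Bax was not tested.

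Bak1, the other pore former and the one that Mcl1 holds in check, had 2, 1 and 2 reads in the control oocyte libraries and 2, 4 and 6 reads in the knockout oocyte libraries. Control embryos held 48, 75 and 80 reads, 3.35 ± 0.633 CPM (SD, n = 3), and maternal knockout embryos 88 and 67 reads, 3.36 ± 0.171 CPM (n = 2). From the summed counts the embryo level was 74.8 times the oocyte level in controls (exact 95% counting interval 31.5 to 233) and 31.9 times in knockouts (17.7 to 63.0). The edgeR adjusted p was 8.24e-08 in controls and 2.98e-06 in knockouts. Bak1 was under the floor of 3 counts in every control oocyte library, and the ratio of Bax to Bak1 per unit length was 6.08 to 8.37 in the control embryo libraries. Bak1 exons overlap Ggnbp1 on the opposite strand, a gene at 0.701 CPM in control oocytes and 1.79 CPM in control embryos, and no source used here gives the strand used in counting.

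Among the BH3-only genes, Bid and Bbc3 were nearly absent from oocytes. Bid, which is cut by caspase 8 into its active form, had 9, 9 and 10 reads in control and 11, 5 and 3 in knockout oocytes, against 534, 523 and 758 in control and 817 and 487 in maternal knockout embryos. In CPM, control embryos stood at 29.98 ± 2.80 (SD, n = 3) and maternal knockout embryos at 27.9 ± 6.20 (n = 2). The embryo level was 119-fold the oocyte level in controls (counting interval 82.3 to 180.2; edgeR adjusted p = 7.14e-11) and 169-fold in knockouts (108 to 282; adjusted p = 2.89e-08). Bid shares 628 exon bases with Bcl2l13 on the opposite strand. Bcl2l13 was at 201.2 CPM in control oocytes, where Bid was at 0.254 CPM, and at 304.1 CPM in control embryos.

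Bbc3, which encodes the p53 target Puma, had 2, 0 and 0 reads in control oocytes and 4, 2 and 0 in knockout oocytes. Embryos held 142, 144 and 239 reads in controls and 194 and 176 in maternal knockouts, or 8.60 ± 1.55 CPM (SD, n = 3) and 8.08 ± 0.589 CPM (n = 2). With 2 oocyte reads in all, the ratio in controls was 484 with a counting interval of 133 to 4003, and in knockouts, with 6 oocyte reads, it was 152 (69.3 to 417). The edgeR adjusted p was 1.32e-08 in controls and 4.99e-07 in knockouts.

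Bcl2l11, which encodes Bim, was the one of the 3 BH3-only members already present in oocytes, and no stage change passed the test. It was at 41.4, 42.2 and 49.4 CPM in control oocytes and 53.1, 50.3 and 55.5 CPM in control embryos. Knockout oocytes had 63.0, 61.6 and 60.6 CPM and maternal knockout embryos 52.8 and 58.9 CPM. Embryos thus lay above oocytes in controls (log2 change 0.23, SE 0.11, edgeR adjusted p = 0.0688) and below them in knockouts (log2 change -0.19, SE 0.09, adjusted p = 0.0897), in both cases without overlap. The value in controls passed in 4 of 14 alternatives and that in knockouts in 1 of 13.

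**Figure D3:**
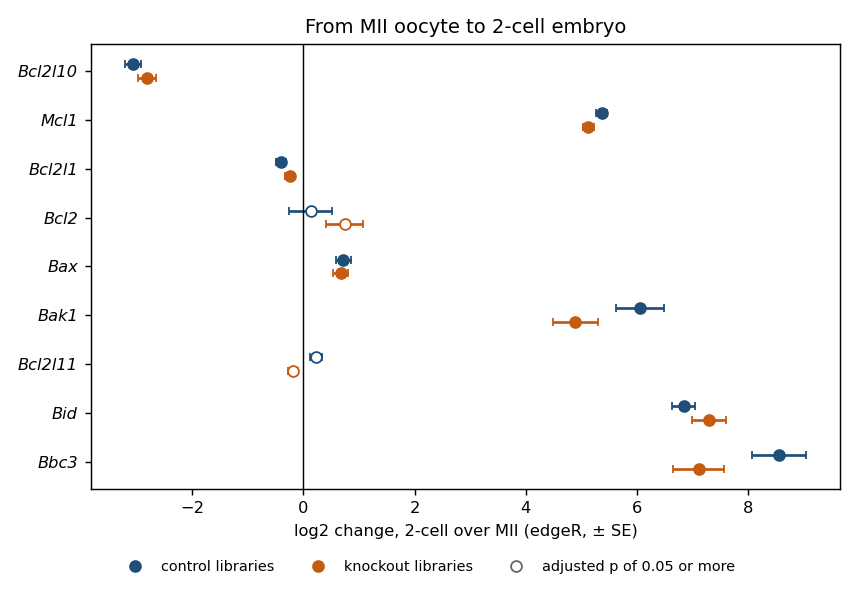
Log2 change from MII oocyte to 2-cell embryo for each gene in control and knockout libraries, from edgeR, with bars of 1 SE; open points did not pass an adjusted p of 0.05. The genotypes lie close for Bcl2l10, Mcl1 and Bax. The fitted values of Bbc3 and Bak1 rest on 2 to 12 summed oocyte reads and depend on the prior count, and so do their SE.

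The start regions of Mcl1, Bak1 and Bid are shown next, each with a single listed start and a rise from oocyte to embryo in both genotypes. Bax, which rose less, also has a single listed start, with 2 GC box matches, and its window is not shown. The 250 bases before the listed start are from RefSeq (GRCm38.p6), written 5′ to 3′ on the gene's strand: Mcl1 at chr3:95658471-95658720 (plus strand), Bak1 at chr17:27028628-27028877 (minus strand) and Bid at chr6:120916825-120917074 (minus strand). The Mcl1 window lies inside the gene's span (95656944 to 95663179), and the Bid window overlaps its gene's span (120893119 to 120917062). For these genes the listed start is thus not the outer end of the gene. Only the Bak1 window lies wholly outside its gene. Capitals mark matches on either strand to the GC box (GGGCGG), the CCAAT box (CCAAT) or the TATA box (TATAAA), and no match shared bases with a match of another motif.
Mcl1: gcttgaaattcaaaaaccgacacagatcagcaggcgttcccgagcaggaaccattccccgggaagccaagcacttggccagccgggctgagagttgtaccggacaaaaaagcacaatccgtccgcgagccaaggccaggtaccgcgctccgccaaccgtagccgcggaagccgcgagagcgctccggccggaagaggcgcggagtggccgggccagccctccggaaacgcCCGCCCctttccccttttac
Bak1: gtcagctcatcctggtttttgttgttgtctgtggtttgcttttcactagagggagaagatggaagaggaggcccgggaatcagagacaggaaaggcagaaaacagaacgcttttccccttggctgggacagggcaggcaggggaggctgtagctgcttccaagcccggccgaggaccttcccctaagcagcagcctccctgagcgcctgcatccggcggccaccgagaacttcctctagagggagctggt
Bid: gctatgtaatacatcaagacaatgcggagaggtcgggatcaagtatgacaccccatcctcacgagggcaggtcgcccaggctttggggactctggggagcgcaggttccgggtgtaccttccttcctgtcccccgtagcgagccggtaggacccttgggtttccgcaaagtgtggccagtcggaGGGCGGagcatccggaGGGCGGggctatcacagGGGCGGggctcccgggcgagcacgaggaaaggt
Mcl1 held 1 GC box match, Bid 3 and Bak1 none, and none of these windows matched the CCAAT or TATA box. The 8 genes with an entry in the table had 13 windows in all, of which 9 held the GC box, 3 the CCAAT box and 0 the TATA box. Genes with several listed starts count more than once: the GC box windows belonged to 6 genes and the CCAAT box windows to 2. In all 32851 promoter windows of the same length, 32.7% held the GC box, 33.8% the CCAAT box and 12.4% the TATA box. The GC content was 64.4% for Mcl1, 58.4% for Bak1 and 63.6% for Bid.

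In oocytes, loss of Daxx was accompanied by a higher level of 1 gene of the family, Bcl2l11. In all, 6 of the 9 genes passed the filter on low counts, and edgeR called 1 higher and 0 lower, beside 0.450% of 14235 genes called higher and 0.133% called lower. None of the 6 was lower at an unadjusted p under 0.05, and DESeq2 and limma-voom also called 0 lower. The knockout libraries, at 60.6 to 63.0 CPM for Bcl2l11, all lay above the controls, at 41.4 to 49.4 CPM. The means were 61.7 ± 1.18 and 44.3 ± 4.42 CPM (SD, n = 3 each), a 1.39-fold difference (log2 change 0.46, SE 0.07, edgeR adjusted p = 0.0158). Bcl2l11 ranked 33rd of the 14235 genes by p, and 5.25% of genes had a larger log2 change.

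The call on Bcl2l11 depended on single libraries and on how the spread was estimated. It passed in 10 of 14 alternatives, with log2 changes of 0.41 to 0.55 and adjusted p of 7.29e-06 to 0.123 in all of them. It was lost with all 11 libraries in 1 fit (0.123), without control replicate 1 (0.110), without control replicate 2 (0.106) and without knockout replicate 3 (0.0557). Beside it, the summed level of 10 spermatid and sperm genes was 2.88 to 3.83 CPM in control and 6.78 to 8.16 CPM in knockout oocytes, carried mainly by Prm2 (1.85 and 5.46 CPM), with Tnp1, Tnp2 and Smcp at 0 reads in both groups. The sum of 6 blood and immune genes was 1.35 to 2.26 CPM in controls and 2.54 to 2.70 CPM in knockouts, mostly Cd68, with Hbb-bs and Hba-a1 at 0. The sum of 18 granulosa and cumulus genes overlapped between genotypes (95.5 to 101.0 and 96.5 to 105.3 CPM), with Fst and Ptx3 at 0. Most of that sum was Nr5a2 (64.7 CPM in controls and 64.6 CPM in knockouts), and 1 gene of the list, Ptgs2, was at 1.28 to 3.28 CPM in controls and 4.87 to 6.36 CPM in knockouts without overlap (edgeR adjusted p = 0.130). The part of these in the Bcl2l11 result was not tested.

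The other tested genes of the family did not pass in oocytes. The log2 change was 0.03 (SE 0.05) for Bcl2l10, -0.01 (SE 0.10) for Mcl1, -0.06 (SE 0.04) for Bcl2l1, -0.04 (SE 0.10) for Bax and -0.32 (SE 0.28) for Bcl2, with edgeR adjusted p of 0.701 to 0.99. The library values of each of these overlapped between the genotypes. For the 3 genes with few oocyte reads the knockout to control ratio of summed counts had wide exact 95% counting intervals: 2.34 (0.768 to 8.48) for Bak1, 0.662 (0.349 to 1.23) for Bid and 2.93 (0.523 to 29.6) for Bbc3. These 3 genes were under the filter on low counts and had no edgeR test in the main fit, and each interval included equal levels.

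**Figure D4:**
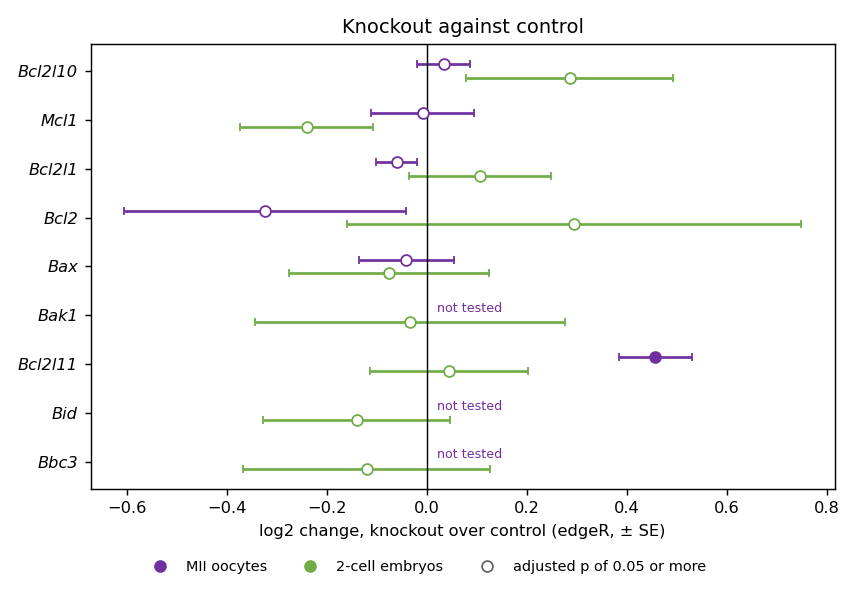
Log2 change of knockout over control for each gene in MII oocytes and in 2-cell embryos, from edgeR, with bars of 1 SE; open points did not pass an adjusted p of 0.05, and genes under the filter on low counts are marked as not tested. Bcl2l11 in oocytes is the filled point.

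In 2-cell embryos, none of the 9 genes differed between maternal knockout and control by edgeR, and none did at an unadjusted p under 0.05. DESeq2 and limma-voom also called 0. Over all 15414 genes, 0.0260% were called higher and 0% lower. Daxx itself was not called (log2 change -0.75, SE 0.19, edgeR adjusted p = 0.544). Its libraries did not overlap, at 35.2 to 46.7 CPM in control and 22.8 to 25.5 CPM in maternal knockout embryos. The lack of calls therefore does not show equal levels. The change nearest the threshold was in Mcl1, whose maternal knockout libraries (293.6 and 305.5 CPM) lay below the controls (325.2 to 358.5 CPM). Its log2 change was -0.24 (SE 0.13, unadjusted p = 0.0899), with an edgeR adjusted p of 1.00. The other 8 genes overlapped between genotypes, with log2 changes of -0.14 (SE 0.19, Bid) to 0.29 (SE 0.45, Bcl2). With so few libraries a gene can separate by chance, and the share of all genes that separate was not counted. For Bcl2l10 the value was 0.29 (SE 0.21), with -0.01 without maternal knockout replicate 3, 0.53 without maternal knockout replicate 2 and 0.71 (edgeR adjusted p = 0.535) without both embryo libraries of the highest Lars2 share. Beside these values, the summed level of the 10 oocyte markers was 2098 to 2489 CPM in control and 2564 to 2678 CPM in maternal knockout embryos, without overlap, and its part in them was not tested. Bcl2l11, the gene that differed in oocytes, was at 53.0 ± 2.61 CPM in control and 55.9 ± 4.30 CPM in maternal knockout embryos (log2 change 0.04, SE 0.16).

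Whether the effect of the genotype differed between the stages was tested in 1 fit of all 11 libraries. edgeR called 0 of the 9 genes, as did DESeq2 and limma-voom, beside 0.0118% of 17018 genes higher and 0% lower. At an unadjusted p under 0.05 the fit gave 1 gene, Bcl2l11, whose genotype effect was lower in embryos by a log2 difference of -0.42 (SE 0.15, unadjusted p = 0.0107, edgeR adjusted p = 0.913). The difference for Mcl1 was -0.24 (SE 0.12). For Bak1 (-1.18, SE 0.70) and Bbc3 (-1.47, SE 1.11) the standard errors were large, with 1 to 6 reads and 0 to 4 reads in the oocyte libraries.

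The wider pathway was read from 3 lists. No gene of the other Bcl2 family members, of the apoptosome, caspases and inhibitors, or of the partners and turnover factors of Bcl2 proteins passed between genotypes by edgeR, DESeq2 or limma-voom. In oocytes that was 0 of 9, 20 and 15 tested genes, with 1, 0 and 1 at an unadjusted p under 0.05. In embryos it was 0 of 11, 18 and 16, with 0, 1 and 1. Over all genes, 0.450% were called higher and 0.133% lower in oocytes, and 0.0260% and 0% in embryos. Between stages in controls, 9 of 12 tested other Bcl2 family members rose and 2 fell (median log2 change 1.26), and 9 of 16 partners rose and 4 fell (0.70). Of the 20 genes of the apoptosome and caspase list, 7 rose and 11 fell, with a median of -0.78. In knockouts the counts were 9 and 1 of 12, 10 and 4 of 16, and 5 and 11 of 20. These counts stand beside 43.1% of all genes that rose and 40.0% that fell in controls, and 42.5% and 37.7% in knockouts. List genes with almost no oocyte reads, such as Bok, Bcl2l14 and Bag3, were tested only through their embryo counts and could hardly fall.

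Pmaip1, which encodes the BH3-only protein Noxa that binds Mcl1, went from 0.163 to 20.7 ± 2.68 CPM in controls (119.8 times by summed counts, 76.4 to 199.7) and from 0.405 to 17.4 ± 2.00 CPM in knockouts. Bmf, a further BH3-only gene, rose by a log2 change of 4.83 (SE 0.54) in controls and 3.76 (SE 0.47) in knockouts. Bcl2l2, encoding the antiapoptotic Bcl-w, rose from 2.38 to 9.93 CPM in controls (log2 change 2.04, SE 0.26), and Bcl2l12 from 2.66 to 7.30 CPM (1.43, SE 0.19). Bcl2l15 fell from 3.92 to 0.290 CPM (log2 change -3.73, SE 0.34). Bcl2l14 had 2 reads in all control oocytes and 1708 in control embryos, 1573 times by summed counts (counting interval 434.8 to 13000). All 6 of these genes passed in both genotypes. Bik, another BH3-only gene of the list, moved against Pmaip1 and Bmf. It fell from 18.6 ± 6.58 to 5.04 ± 1.35 CPM in controls (log2 change -1.91, SE 0.29, edgeR adjusted p = 5.93e-05). In knockouts Bik went from 14.6 to 4.11 CPM without passing (log2 change -1.89, SE 0.73, edgeR adjusted p = 0.0608). The BH3-only gene Bad did not pass in controls (log2 change -0.02, SE 0.26).

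On the caspase side, Casp8, the initiator caspase that cleaves Bid, fell from 30.6 ± 2.03 to 1.20 ± 0.196 CPM in controls (log2 change -4.71, SE 0.18, edgeR adjusted p = 5.02e-10), while Bid rose. Apaf1, the scaffold of the apoptosome, rose from 16.3 to 112.3 CPM (log2 change 2.75, SE 0.12). Casp2, an initiator caspase linked to oocyte death, fell from 40.8 to 9.62 CPM (-2.11, SE 0.13). Among the inhibitor of apoptosis genes, Birc5 (-1.21, SE 0.09) and Birc3 (-1.42, SE 0.12) fell and Birc6 (1.61, SE 0.15) rose. In knockouts each of the 6 moved in the same direction and passed.

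Of the partners, Bag3, a co-chaperone that binds Bcl2, had 3 reads in all control oocytes and 161.7 ± 24.1 CPM in control embryos, 6047 times by summed counts (counting interval 2068 to 29325). Its relative Bag1 rose from 16.3 to 123.2 CPM (log2 change 2.89, SE 0.10). Huwe1, a ubiquitin ligase of Mcl1, rose from 323.9 to 829.1 CPM (1.33, SE 0.10). Mtch2, the mitochondrial receptor of Bid, rose from 3.68 to 17.99 CPM (2.26, SE 0.18). Of the outer membrane channels, Vdac1 rose (1.16, SE 0.09) and Vdac3 fell (-2.22, SE 0.10). All 6 passed in the same direction in knockouts.

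The genes whose levels followed each member most closely over the 11 libraries were named by Pearson's r of log2(CPM + 1), among about 9860 genes of at least 5 CPM, as a description only, because the points share the step between the stages. They were Zfp57 (0.9991) for Bcl2l10, Rbm5 (0.9998) for Mcl1, Wwox (0.9910) for Bcl2l1, Sugp1 (0.9987) for Bax, Kat2a (0.9988) for Bak1, Zfyve9 (0.9996) for Bid and Ranbp10 (0.9995) for Bbc3. The next in order were Zfand2b (0.9988), Gabpa (0.9998), Psmb6 (0.9814), Arfrp1 (0.9976), Ddx39a (0.9983), Zfp346 (0.9996) and Sac3d1 (0.9995), respectively. The matches of Bcl2l11 and Bcl2, whose stage change passed in neither genotype, had a lower r: Lgi2 (0.9399) and Prkcb (0.8617) for Bcl2l11, and Fam199x (0.9426) and Arid1a (0.8691) for Bcl2.

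In GRCm38 the genes lie apart on 7 chromosomes, except that Bcl2l11 (2: 128126038 to 128162547) and Bcl2l1 (2: 152758732 to 152833803) share chromosome 2 and Bbc3 (7: 16308398 to 16318334) and Bax (7: 45461695 to 45466903) share chromosome 7. Bcl2l10 spans 75347758 to 75351640 on chromosome 9, Mcl1 95656944 to 95663179 on chromosome 3 and Bcl2 106538176 to 106714290 on chromosome 1. Bak1 spans 27019812 to 27028627 on chromosome 17, the chromosome of Daxx (33909404 to 33915590), and Bid 120893119 to 120917062 on chromosome 6.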

How the data were processed

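Libraries were made with the SoLo RNA-Seq system from pooled cells, per the labels' protocols. The authors deposited read counts per gene, by Entrez number, with a gene width. STAR 2.5.0a, SAMtools and the build GRCm38 (mm10) are named per the submitters' processing notes. No source used here gives the counting program or its use of strand. Of the 24421 identifiers 24387 matched RefSeq symbols, and the 34 others held at most 0.032% of reads. Replicates of a group differed by more than sampling noise (chi-square per degree of freedom 5.10 to 37.2), and all libraries were kept. The labels call each pool a biological group. Intervals and floors cover counting error only.

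Levels are CPM of the library total, and CPM per kb of deposited width between genes. Tests used edgeR 4.0.16 (R 4.3.3): filterByExpr (count minimum 10, total minimum 15), TMM factors and the robust quasi-likelihood F test, with Benjamini-Hochberg adjustment over all genes tested and a threshold of 0.05, two-sided. The SE given with an edgeR log2 change is the absolute log2 change divided by the square root of the F statistic. It is approximate, above all for genes with almost no oocyte reads. Each comparison used its own groups, and the difference of effects all 11 libraries. The members and lists were chosen with earlier results of these data known. All 9 members were described. List genes were named where they passed between genotypes or, between stages, as up to 6 per list with the smallest p among those changed at least 2-fold in controls. Bik and Bad were named beside these, outside that rule. The 2 most similar genes were named for each member. Alternatives were DESeq2 1.42.0, limma-voom (limma 3.58.1), RLE size factors, other filters, a replicate block, 1 joint fit and each library left out. Library totals without scaling, GENCODE exon lengths, and leaving out both embryo libraries of the highest Lars2 share were added after seeing the data. Near copies were searched with BLAST+ 2.17.0, which found none beyond overlapping genes (95% identity over 100 bases). The tests were also run on simulated counts with the same dispersion for every gene and library. The spread of these libraries is not so even, so that the simulation does not show how the tests perform on them.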

Additional observations from a re-analysis of the deposited data

How the results depend on the processing

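Of the 9 genes, 0 were called between embryo genotypes and for the difference of effects in all alternatives run. Between control stages 2 were lower in all alternatives, and the 5 called higher became 6, with Bcl2l11, under DESeq2, RLE size factors, library totals and without oocyte replicate 3. In oocytes the 1 gene called higher became 0 with all 11 libraries in 1 fit and ranged from 0 to 1 when each library was left out. The 2 genes called lower between knockout stages became 1 with DESeq2 and with RLE size factors, and 3, with Bcl2l11 (adjusted p = 0.00716), without maternal knockout replicate 3. The 5 called higher there became 6, with Bcl2, under RLE size factors. Signs reversed only for values that did not pass. Over the fits that each left out a library, the log2 change in oocytes ranged from -0.015 (without knockout replicate 3) to 0.084 for Bcl2l10 and from -0.041 to 0.052 (without knockout replicate 3, and 0.0063 without control replicate 2) for Mcl1, which was 0.011 with library totals. In embryos the range was -0.0081 to 0.53 for Bcl2l10, -0.078 to 0.15 for Bcl2l11 and -0.35 to 0.034 for Bid, reversed without maternal knockout replicate 3. It was -0.24 to 0.0071 for Bbc3 (without control replicate 3) and -0.16 to 0.11 for Bak1 (without control replicate 2). Bak1 was at 0.00024 with library totals and 0.088 without both embryo libraries of the highest Lars2 share. Between control stages Bcl2 ranged from -0.21 (without embryo replicate 1, and -0.071 without oocyte replicate 2) to 0.41. The difference of effects for Bcl2l10 ranged from -0.031 (without maternal knockout replicate 3) to 0.48. Without both high Lars2 libraries, Bcl2l10 was at 0.71 in embryos and 0.66 for the difference of effects. The cause was not tested.

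The background counts moved more. Against 64 higher and 19 lower genes in oocytes, DESeq2 called 154 and 73, limma-voom 45 and 12, no filter 130 and 53, 1 joint fit 18 and 4, and leaving out a library 16 to 117 and 4 to 40. Against 4 and 0 in embryos, DESeq2 called 9 and 1, limma-voom 2 and 0, no filter 30 and 2, 1 joint fit 12 and 1, library totals 2 and 0, the fit without both high Lars2 libraries 30 and 2, and leaving out a library 0 to 5 and 0 to 4. Against 2 and 0 for the difference, DESeq2 called 4 and 3, limma-voom 1 and 1, and the fit without both high Lars2 libraries 31 and 3. The count of other Bcl2 family members that fell between knockout stages was 1 and became 2 in 7 of 13 alternatives, and 1 partner gene was called in oocytes without knockout replicate 2.

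Replicate numbers of the labels gave no clear sign of pairing. As deviations from their group means, same-numbered libraries correlated by -0.107, 0.087 and 0.018 between oocyte genotypes and by -0.103 and -0.026 between embryo genotypes. Not every library correlated best with its own number. Deviations within such small groups depend on one another, so that these values cannot settle whether the numbers pair libraries. With the number as a replicate block, 78 genes were higher and 32 lower in oocytes, with Bcl2l11 among them (adjusted p = 0.0127), and 1 and 1 in embryos. The block called 1 of the 9 genes in oocytes and 0 in embryos. Depth limits Bak1, Bid and Bbc3 in oocytes, each at 0 to 11 reads per library.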
